A study of Mus musculus with 9 samples.

Results

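The set described here holds 45 genes of the cell cycle and of DNA replication, out of the 23337 genes of the count table. They were taken by symbol from a list chosen with earlier results of these data known. Of the 45 genes, 18 act in G1 or S phase, 26 act in mitosis, and 1, Cdkn1a, encodes an inhibitor of cyclin-dependent kinases. The study sequenced poly(A) RNA of whole mouse liver after a high-fat diet and asked what loss of protease-activated receptor 2 (PAR2), a receptor cleaved by coagulation proteases, does there. All 9 mice were C57BL/6, began the diet at 6 to 8 weeks of age and ate it for 16 weeks. The dHep group (PAR2dHep, 3 mice) lacks the receptor in hepatocytes by label, the KO group (PAR2 KO, 3 mice) lacks it in the whole body by label, and the WT group (PAR2fl/fl, 3 mice) carries the floxed allele with no deletion by label. The sex of the mice and the promoter that drives the hepatocyte deletion are not given in the sources used here. Every comparison is between livers on the same diet.

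Proliferating cells copy their DNA in S phase and divide it in mitosis, and each step has its own genes. In G1, D-type cyclins lead to phosphorylation of RB and release of E2F factors, which switch on genes of origin licensing, nucleotide supply and replication. Genes of mitosis are switched on later, by a complex that holds B-MYB and FOXM1 at promoters with the cell cycle genes homology region (CHR), and are repressed in resting cells by the DREAM complex; p21, the product of Cdkn1a and a target of p53, favours that repression. Hepatocytes of an adult liver mostly rest and re-enter the cycle after injury or loss of tissue, and resident immune, endothelial and bile duct cells can divide as well. In RNA of whole liver, fewer cells of a type and less RNA per cell cannot be told apart.

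F2rl1, the gene of PAR2 (mm10 chr13:95511730-95525240), had 2, 8 and 0 reads in the dHep libraries, 71, 103 and 76 reads in the libraries labelled KO, and 17, 27 and 28 reads in the WT libraries. It fell in dHep livers against WT livers (log2 fold change -2.73 ± 0.66 SE, edgeR adjusted p = 0.0164, 6.3e-05 to 0.062 over the alternatives) whereas the libraries labelled KO were higher than WT, a rise that passed (2.22 ± 0.51, edgeR adjusted p = 0.00735). The dHep call was lost without WT replicate 2 (0.0595), WT replicate 3 (0.062) or dHep replicate 1 (0.0505), and the log2 fold change was -4.40 without dHep replicate 2, which held 8 of its reads. The KO label does not match the level of its target, counted here over the whole gene. Every direction given below for that group is a direction of libraries so labelled. The dHep group is named by its label too. A low count in whole liver does not show which cells lost the gene. Depth was 18683660 to 30509242 assigned reads per library. The libraries dHep replicate 2 and WT replicate 1 stood apart in transcripts of the exocrine pancreas (summed 1781 and 437 CPM, that is reads per 1000000 assigned reads), and are called the pancreas-bearing libraries here; dHep replicate 2 also held skeletal muscle transcripts (572 CPM). Hepatocyte markers (7 of 8 listed were in the table) summed to 96119 to 140532 CPM in dHep, 92969 to 105090 CPM in the libraries labelled KO and 90121 to 94923 CPM in WT. Every dHep library lay above every WT library. Of 6 markers tested 3 rose in dHep and 2 in KO, where 12.4% and 20.9% of all genes rose.

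Every member was measured against the same model, edgeR's quasi-likelihood test on the raw counts of all 9 libraries. A gene is said to have risen or fallen where its p, adjusted by the Benjamini-Hochberg method over the 13141 genes tested, was under 0.05; levels are CPM scaled by the trimmed mean of M-values (TMM), and log2 fold changes are followed by their standard error. All 45 members passed the filter on low counts. Both comparisons with WT share the WT libraries, so a low or high WT library moves both. Nothing in the labels says whether the 3 mice of a group shared a litter or cage, and p-values measure the spread between these mice.

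In dHep livers 14 of the 18 S-phase members fell, 1 rose and 3 did not pass the test, while 11.9% of all genes tested fell and 12.4% rose. Of the 26 mitosis members 24 fell and 2 did not pass. Median log2 fold changes were -1.19 for the S-phase members, -2.48 for the mitosis members and 0.02 over all genes tested. In the libraries labelled KO 12 S-phase members fell and 6 did not pass, and 23 mitosis members fell and 3 did not pass, beside 22.1% of all genes that fell and 20.9% that rose. The medians there were -1.23 for S-phase members, -1.68 for mitosis members and -0.01 over all genes. Whether or not the test passed, levels were at least 2-fold lower than in WT for 12 S-phase and 24 mitosis members in dHep livers. In the libraries labelled KO they were so for 11 and 24. At least 4-fold lower were 3 and 17 in dHep livers and 3 and 12 in those labelled KO. These counts hold Ccne1 in dHep and Plk1 in KO, which did not pass. The shares over all genes at these sizes were not counted. Called in either direction were 15 of 18 S-phase members in dHep (24.3% of all genes) and 12 in the libraries labelled KO (43%). Without overlap of the groups, 15 S-phase and 24 mitosis members were lower in dHep than in WT, as were 22.6% of all genes, and 1 S-phase member was higher, as were 20.8%. In the libraries labelled KO 14 S-phase and all 26 mitosis members were lower without overlap (33.8% of all genes), and 0 members were higher (32.4%). Not all calls held under every alternative fit in which the member was tested. For dHep livers 11 of 15 S-phase and 21 of 24 mitosis calls did. In the libraries labelled KO 10 of 12 and 16 of 23 did. A stricter filter, of at least 1 CPM in 3 libraries, left 22 of the 26 mitosis members tested.

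**Figure D1:**
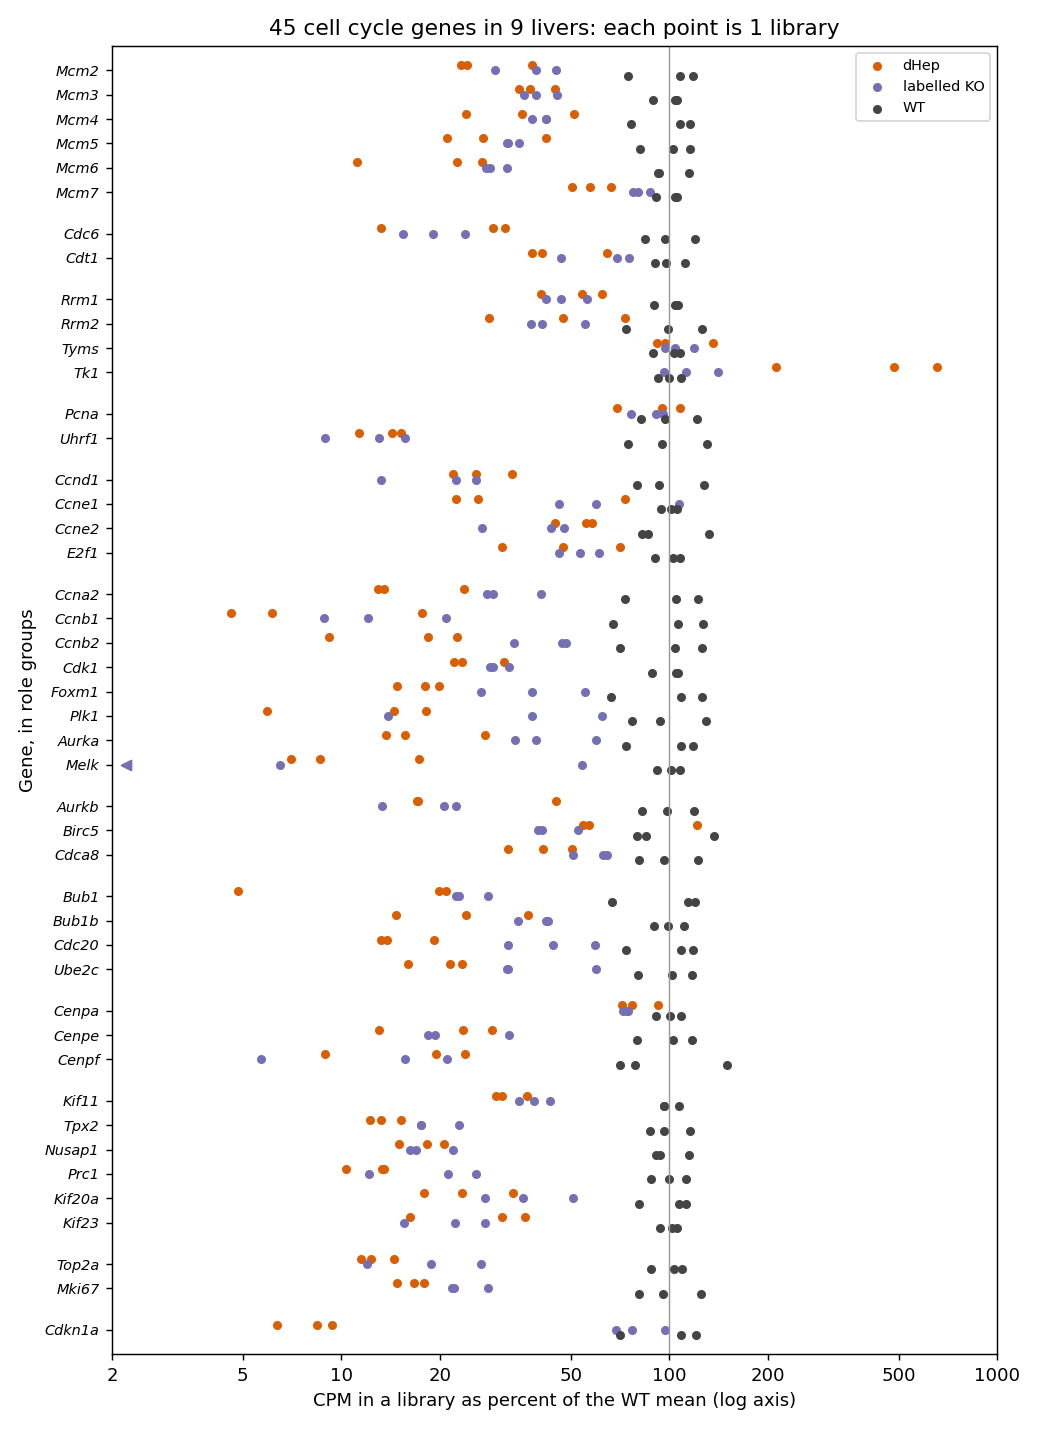
CPM of each of the 45 members in each of the 9 libraries as a percent of the mean of the 3 WT libraries, on a log axis, with genes in rows by role, 1 point per library coloured by group, and a triangle at the left edge for a library with 0 reads. The points of dHep and of the libraries labelled KO lie left of the WT points in most rows, whereas Tk1 lies right of them in dHep (17.1 to 52.9 CPM) and Cdkn1a lies left of them in dHep alone (1.2 to 1.77 CPM).

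The summed level of the S-phase members was 119, 157 and 182 CPM in the dHep libraries, 123, 127 and 131 CPM in those labelled KO, and 245, 309 and 322 CPM in WT. The summed level of the mitosis members was 16.8, 16.1 and 18.6 CPM in dHep, 24.8, 23.3 and 20.1 CPM in the libraries labelled KO, and 61.5, 75.1 and 84.4 CPM in WT. Every library labelled dHep or KO lay below every WT library in both sums. The mean mitosis sum was 17.2 ± 1.31 CPM in dHep, 22.8 ± 2.38 CPM in those labelled KO and 73.7 ± 11.5 CPM in WT (SD, n = 3 each), which is 4.29-fold lower in dHep and 3.24-fold lower in KO than in WT. The S-phase sums were 1.91-fold and 2.3-fold lower. Ccnd1, the most abundant S-phase member in WT, and Tk1 were then left out, a choice made after their values were seen. Without them, mitosis members reached 0.218, 0.188 and 0.173 of the S-phase sum in dHep, 0.252, 0.24 and 0.209 of it in the libraries labelled KO, and 0.389, 0.359 and 0.447 of it in WT. These ratios did not overlap between WT and the other groups and were not tested. Within WT, replicate 1 had the lowest level of the 3 for 16 of the 18 S-phase and 23 of the 26 mitosis members, and within dHep replicate 3 had the highest for 13 of the 18 S-phase members.

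**Figure D2:**
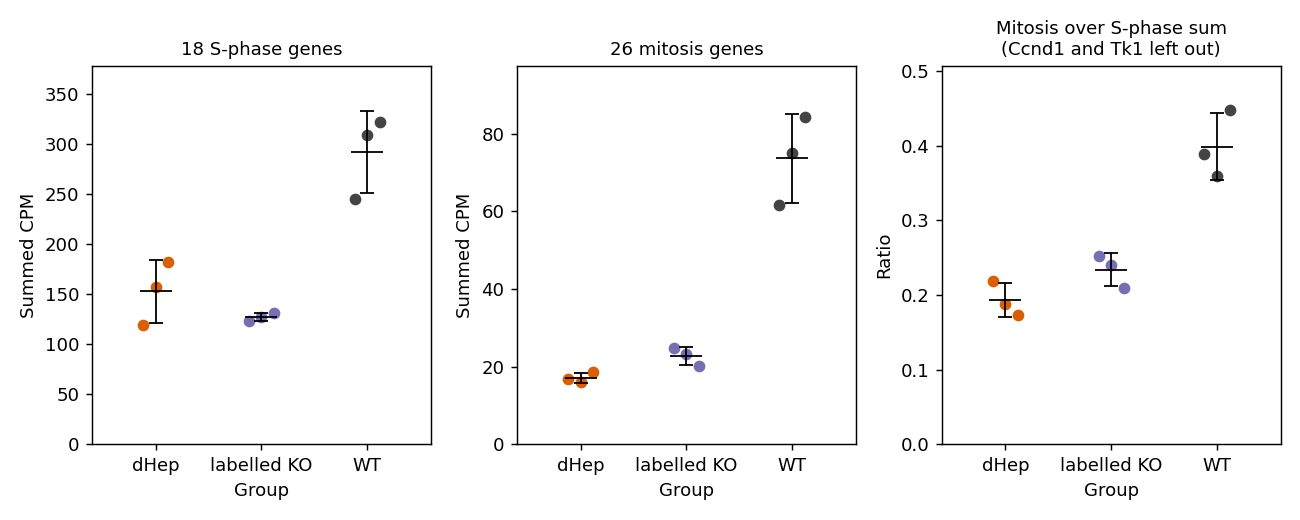
Summed CPM of the 18 S-phase members, summed CPM of the 26 mitosis members, and the mitosis sum over the S-phase sum without Ccnd1 and Tk1, 1 point per library, by group, with the group mean and SD (bars). The mitosis sums lie between 16.1 and 18.6 CPM in dHep, between 20.1 and 24.8 CPM in the libraries labelled KO and between 61.5 and 84.4 CPM in WT.

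The MCM helicase, the ring of 6 subunits that unwinds DNA at the fork, was lower in dHep livers in all of its subunits. Mcm3 had 5.97, 5.54 and 7.11 CPM in dHep, 6.25, 7.23 and 5.71 CPM in the libraries labelled KO, and 14.2, 16.8 and 16.5 CPM in WT. The groups did not overlap with WT, and Mcm3 fell in dHep (-1.35 ± 0.14, edgeR adjusted p = 0.000585) and in the libraries labelled KO (-1.31 ± 0.15, edgeR adjusted p = 0.000337). Mcm2, Mcm4, Mcm5 and Mcm6 also fell in both, with log2 fold changes of -1.44 to -2.29 in dHep and -1.29 to -1.77 in KO; Mcm6 had the largest fall of the ring in each. Mcm7 was the exception in size, at 11, 9.72 and 12.7 CPM in dHep, 16.7, 15.4 and 14.9 CPM in the libraries labelled KO, and 17.5, 20.2 and 19.9 CPM in WT. It fell in dHep (-0.79 ± 0.12, edgeR adjusted p = 0.00304) and did not pass in the libraries labelled KO (-0.29 ± 0.12, edgeR adjusted p = 0.081), although all 3 of these lay below WT. That KO value passed without dHep replicate 2 (0.0453), without dHep replicate 3 (0.0433), with dHep replicate 2 and WT replicate 1 both out (0.0443) and in a fit of WT and KO alone (0.0236), all by edgeR.

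The promoter of Mcm6 shows the elements that S-phase promoters are known for. The bases of its last stretch before the annotated start are given here in RefSeq sequence of GRCm38.p6, the build also called mm10, 5′ to 3′ on the gene's own minus strand, from chr1:128359706-128359825. Capitals mark E2F sites (TTTCCCGC, TTTCGCGC, TTTGCCGC or TTTGGCGC) and the CCAAT box bound by NF-Y, on either strand, so that ATTGG is a CCAAT box of the other strand; the first run of capitals is a pair of overlapping E2F matches, 1 on each strand.
Mcm6: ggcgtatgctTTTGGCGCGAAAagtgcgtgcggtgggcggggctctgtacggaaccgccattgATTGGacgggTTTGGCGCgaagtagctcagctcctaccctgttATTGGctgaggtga
Of the 15 S-phase members with a RefSeq promoter, 5 (33.3%) held an E2F match in the 250 bases before the start. The same held for 1 (4.76%, Cdk1) of 21 mitosis members and 3.82% of the 9453 tested genes with a promoter. Genes with several annotated starts counted if any start had a match. With genes of 1 start alone, these shares were 23.1%, 5% and 3.65%.

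Loading of the helicase onto origins needs Cdc6 and Cdt1. Cdc6 had 0.48, 0.201 and 0.441 CPM in dHep, 0.235, 0.362 and 0.289 CPM in the libraries labelled KO, and 1.47, 1.82 and 1.28 CPM in WT. The WT libraries lay above all others, and Cdc6 fell in dHep (-2.0 ± 0.36, edgeR adjusted p = 0.00545) and in the libraries labelled KO (-2.34 ± 0.39, edgeR adjusted p = 0.0016). Cdt1 was at 0.899, 0.964 and 1.52 CPM in dHep, 1.78, 1.63 and 1.1 CPM in the libraries labelled KO, and 2.14, 2.3 and 2.64 CPM in WT. No library outside WT reached a WT level, but the fall was called in dHep alone (-1.08 ± 0.29, edgeR adjusted p = 0.0245), and in KO the value was -0.64 ± 0.28 (edgeR adjusted p = 0.0942, 0.0427 in a fit of WT and KO alone). The dHep call for Cdt1 was lost without WT replicate 1, 2 or 3 (0.0559, 0.0757 and 0.0981), without dHep replicate 1 (0.0631) and with the 2 pancreas-bearing libraries out (0.0768), by edgeR.

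The enzymes that supply nucleotides did not move together. Tk1, thymidine kinase of the salvage route (chr11:117815519-117826014, minus strand), had 17.1, 39.1 and 52.9 CPM in dHep, 11.4, 7.78 and 9.06 CPM in the libraries labelled KO, and 8.04, 8.78 and 7.45 CPM in WT. All dHep libraries lay above all others, the lowest being replicate 1, and Tk1 was the only member that rose against WT (2.17 ± 0.35, edgeR adjusted p = 0.00317, at most 0.0218 over the alternatives). Per kilobase of gene, its mean level was 26.6 CPM in dHep and 5.91 CPM in WT. In the libraries labelled KO the difference from WT was 0.22 ± 0.34 (edgeR adjusted p = 0.633), and Tk1 fell there against dHep (-1.95 ± 0.35, edgeR adjusted p = 0.0109), a call lost without KO replicate 2 (0.0545) or 3 (0.0544). Exons of Tk1 overlap those of Afmid, an enzyme of tryptophan breakdown, on the opposite strand. Afmid had 121, 157 and 195 CPM in dHep, 104, 88.9 and 96.3 CPM in the libraries labelled KO, and 43.7, 45.1 and 37.3 CPM in WT, and it rose in dHep (1.91 ± 0.17, edgeR adjusted p = 0.000241) and in KO (1.20 ± 0.16, edgeR adjusted p = 0.000747). Counting was strand-specific per the file headers, and the part of Afmid reads in the Tk1 value was not tested. Ccne2, Ccna2, Cdc20, Nusap1 and Kif20a also share exon bases with a gene on the opposite strand, and that part was not tested either.

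The stretch before the Tk1 start is shown because Tk1 moved against the other S-phase members; it comes from chr11:117826015-117826134 of GRCm38.p6 (RefSeq, minus strand). These 120 bases hold none of the letters searched, but a CHR (TTTAAA) lies just upstream of them, at position -128 from the start, so that Tk1 counts among the S-phase members with a CHR.
Tk1: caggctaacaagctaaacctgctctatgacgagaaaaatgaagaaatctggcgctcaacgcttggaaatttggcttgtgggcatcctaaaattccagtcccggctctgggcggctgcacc
Tyms, thymidylate synthase of the de novo route, had 7.28, 6.87 and 10.2 CPM in dHep, 7.28, 8.91 and 7.79 CPM in the libraries labelled KO, and 6.69, 8.04 and 7.74 CPM in WT. The groups overlapped, and the log2 fold changes of 0.11 ± 0.17 in dHep (edgeR adjusted p = 0.673) and 0.09 ± 0.17 in KO (edgeR adjusted p = 0.684) were smaller than their errors. The large and small subunits of ribonucleotide reductase, Rrm1 and Rrm2, fell in both, with log2 fold changes of -0.93 and -1.02 in dHep and -1.05 and -1.16 in KO. For Rrm2 the calls were near the threshold (edgeR adjusted p = 0.0481 in dHep and 0.0189 in KO). The dHep call was lost under 12 of 16 alternatives, among them leaving out any library but dHep replicate 3 (0.0516 to 0.175), and the KO call without WT replicate 2 (0.0772), WT replicate 3 (0.0524), KO replicate 1 (0.059) or KO replicate 2 (0.0758). Tyms has a named pseudogene in the annotation, as do Pcna, Ccnb1 and Ccnb2, and reads shared with such copies make these 4 values less certain. Ccnd1 and Foxm1 share exon bases with another annotated gene on the same strand (Mir3962 and 4933413G19Rik), which leaves their counts uncertain too.

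Pcna, the sliding clamp that tethers polymerases, had 14.7, 20.2 and 22.9 CPM in dHep, 19.4, 20.3 and 16.3 CPM in the libraries labelled KO, and 17.5, 25.8 and 20.7 CPM in WT. The groups overlapped, with log2 fold changes of -0.15 ± 0.19 in dHep (edgeR adjusted p = 0.611) and -0.19 ± 0.19 in KO (edgeR adjusted p = 0.445). Uhrf1, which recruits the maintenance DNA methyltransferase to newly copied DNA, was at 0.51, 0.643 and 0.687 CPM in dHep, 0.705, 0.588 and 0.404 CPM in the libraries labelled KO, and 3.38, 5.89 and 4.28 CPM in WT. All WT libraries lay above the rest. The log2 fold changes of -2.88 ± 0.30 in dHep (edgeR adjusted p = 0.000541) and -2.97 ± 0.31 in KO (edgeR adjusted p = 0.000254) were the largest S-phase falls of each comparison.

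Ccnd1, cyclin D1 of the G1 phase, had the highest S-phase level per kilobase in WT (25.9 CPM). It had 25.3, 32.5 and 21.6 CPM in dHep, 13, 22 and 25.3 CPM in the libraries labelled KO, and 78.2, 91.5 and 125 CPM in WT, with no overlap. Ccnd1 fell in dHep (-1.89 ± 0.27, edgeR adjusted p = 0.00185) and in the libraries labelled KO (-2.29 ± 0.27, edgeR adjusted p = 0.000421). The E-type cyclins drive S-phase entry. Ccne1 had 0.69, 1.93 and 0.589 CPM in dHep, 1.22, 1.58 and 2.83 CPM in the libraries labelled KO, and 2.48, 2.67 and 2.78 CPM in WT. The dHep libraries lay below WT, with replicate 2 closest, and the KO libraries overlapped WT. The dHep difference did not pass (-1.30 ± 0.46, edgeR adjusted p = 0.0659) except without dHep replicate 2 (-2.03, edgeR adjusted p = 0.00578), with both pancreas-bearing libraries out (-2.07, edgeR adjusted p = 0.0158) and by DESeq2 (0.0256). In KO it was -0.50 ± 0.45 (edgeR adjusted p = 0.386).

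Ccne2 and the transcription factor gene E2f1 fell in dHep (-0.92 and -1.02, edgeR adjusted p = 0.0399 and 0.0227) and in KO (-1.35 and -0.91, edgeR adjusted p = 0.00532 and 0.0218). The dHep call for Ccne2 was lost without any 1 WT or dHep library (0.0592 to 0.173), without KO replicate 3 (0.0518) and with both pancreas-bearing libraries out (0.0858). That call was also lost in an edgeR fit of dHep and WT alone (0.0501) and with the replicate number as a block (0.0722). The dHep call for E2f1 was lost without WT replicate 2 (0.0853), WT replicate 3 (0.0788) or dHep replicate 1 (0.0559). An edgeR fit of dHep and WT alone lost the E2f1 call too (0.0535). Its KO call was lost without WT replicate 2 (0.0746), WT replicate 3 (0.0649), KO replicate 1 (0.0581) or KO replicate 2 (0.0841). Both genes stayed below WT in direction under each of these fits.

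**Figure D3:**
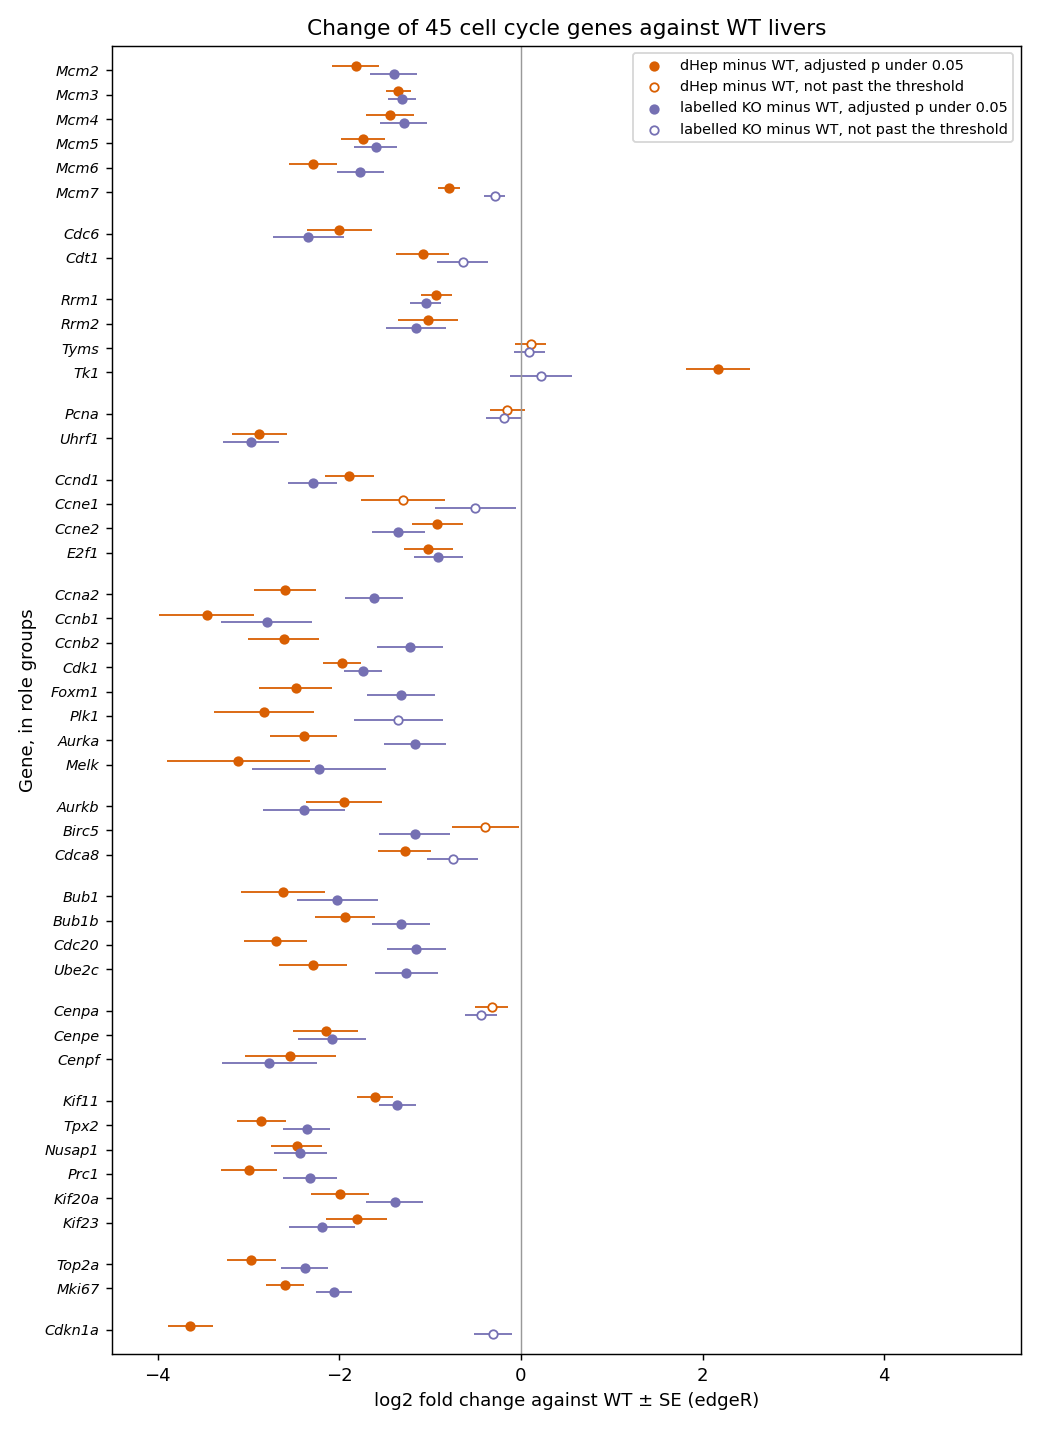
Log2 fold change of each member against WT, for dHep and for libraries labelled KO, with its standard error (bars), in rows by role; filled points passed the threshold of 0.05 on the adjusted p and open ones did not. Tk1 is the filled point right of 0 (2.17 in dHep), Tyms and Pcna lie near 0 in both, and 21 of the 26 mitosis members lie further left in dHep than in KO.

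Among the genes of mitotic entry, Cdk1, the kinase that drives it, had 1.14, 1.2 and 1.62 CPM in dHep, 1.46, 1.67 and 1.5 CPM in the libraries labelled KO, and 4.58, 5.48 and 5.42 CPM in WT. Cdk1 fell in dHep (-1.97 ± 0.21, edgeR adjusted p = 0.000573) and in the libraries labelled KO (-1.74 ± 0.21, edgeR adjusted p = 0.000444), with every WT library above every other. Its partner Ccnb1, cyclin B1, had 0.0899, 0.12 and 0.343 CPM in dHep, 0.235, 0.407 and 0.173 CPM in the libraries labelled KO, and 1.31, 2.07 and 2.46 CPM in WT. Ccnb1 fell in dHep (-3.46 ± 0.52, edgeR adjusted p = 0.00236, and -4.17 without dHep replicate 3), the largest fall against WT of any mitosis member, and in the libraries labelled KO (-2.80 ± 0.50, edgeR adjusted p = 0.00226). Plk1, a kinase that promotes activation of CDK1 with cyclin B, was at 0.15, 0.12 and 0.049 CPM in dHep, 0.517, 0.316 and 0.115 CPM in the libraries labelled KO, and 0.639, 0.778 and 1.07 CPM in WT. Plk1 fell in dHep (-2.83 ± 0.55, edgeR adjusted p = 0.00704), where it had only 5, 3 and 1 reads. In KO all libraries were below WT but the test did not pass (-1.35 ± 0.49, edgeR adjusted p = 0.0514); it passed without dHep replicate 3 (0.0469), without KO replicate 1 (0.0326) and in a fit of WT and KO alone (0.0366).

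The other entry genes, Ccna2 (cyclin A2), Ccnb2 (cyclin B2), Foxm1 (the transcription factor of G2), Aurka (the centrosome kinase) and Melk (a kinase of dividing cells), all fell, with log2 fold changes of -2.39 to -3.11 in dHep and -1.17 to -2.22 in KO. Melk rested on few reads, with 2, 3 and 1 in dHep, 8, 1 and 0 among those labelled KO, and 17, 19 and 21 in WT, which lay above the rest. Its dHep call (edgeR adjusted p = 0.02) was lost without any 1 WT library (0.0512 to 0.0743), dHep replicate 1 (0.0618) or dHep replicate 3 (0.0577). Its KO call (edgeR adjusted p = 0.0365) was lost without any 1 WT library (0.0759 to 0.0999), KO replicate 2 (0.135) or KO replicate 3 (0.0897). That call was also lost with no low-count filter (0.0662) and with both pancreas-bearing libraries out (0.0637). The KO log2 fold change of Melk was -4.53 without KO replicate 1. The KO calls of Ccnb2 (edgeR adjusted p = 0.0224), Foxm1 (0.0185) and Aurka (0.0216) were lost without WT replicate 2 (0.0711, 0.0662 and 0.085) and without WT replicate 3 (0.0968, 0.0824 and 0.0718). They were lost as well without KO replicate 1 for Ccnb2 (0.0712) and Aurka (0.0668), without KO replicate 2 for Ccnb2 (0.0526) and Foxm1 (0.0748), and without KO replicate 3 for all of them (0.0552, 0.0607 and 0.0713). In all of these genes but Melk, the 3 dHep libraries lay below the 3 labelled KO.

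Promoters of the mitosis members are shown because those genes fell together and because their known elements can be read directly. The sequences run 5′ to 3′ on the gene's strand up to the RefSeq start in GRCm38.p6: Ccnb1 from chr13:100786487-100786606 (minus), Kif11 from chr19:37376262-37376381 (plus), Ube2c from chr2:164769809-164769928 (plus) and Cdc20 from chr4:118437344-118437463 (minus). Capitals mark the CHR (TTTGAA or TTTAAA) and the CCAAT box, with TTCAAA and ATTGG standing for the same elements on the other strand.
Ccnb1: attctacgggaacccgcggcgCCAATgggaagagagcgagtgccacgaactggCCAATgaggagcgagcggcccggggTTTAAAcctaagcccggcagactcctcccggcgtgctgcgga
Kif11: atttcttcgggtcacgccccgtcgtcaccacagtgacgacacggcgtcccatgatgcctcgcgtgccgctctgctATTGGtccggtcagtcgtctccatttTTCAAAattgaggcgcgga
Ube2c: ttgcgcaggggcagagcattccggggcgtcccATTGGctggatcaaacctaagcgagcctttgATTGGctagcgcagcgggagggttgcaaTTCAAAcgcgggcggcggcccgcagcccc
Cdc20: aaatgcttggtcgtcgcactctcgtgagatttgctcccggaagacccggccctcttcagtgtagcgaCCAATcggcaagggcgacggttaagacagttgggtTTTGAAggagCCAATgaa
In each of those shown a CHR lies downstream of a CCAAT box. In Ccnb2, Cenpf and Plk1, which hold both elements, every CHR lies upstream of every CCAAT box. The share of members with either order was not counted. A CHR was present before the start in 13 of 21 mitosis members (61.9%), 4 of 15 S-phase members (26.7%) and 21.1% of all tested genes with a promoter, and a CCAAT box in 18 (85.7%), 9 (60%) and 40.6%. Both were present in 12 mitosis members (57.1%), 2 S-phase members (13.3%) and 9.22% of all. Genes with several annotated starts counted if any start had the motif; with genes of 1 start alone, the CHR shares were 60%, 30.8% and 17.5%. A match is a run of letters, and binding was not measured.

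**Figure D4:**
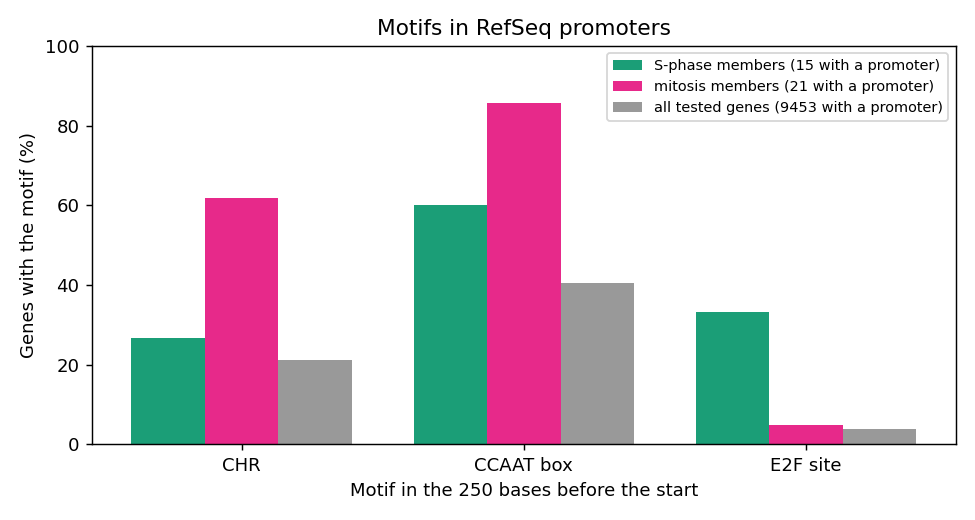
Share of genes with a CHR, a CCAAT box or an E2F match in the 250 bases before the start, for 21 mitosis members, 15 S-phase members and the 9453 tested genes with a promoter. CHR and CCAAT are most frequent in mitosis members (61.9% and 85.7%) and E2F in S-phase members (33.3%).

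The chromosomal passenger complex corrects attachments and completes division. Its kinase Aurkb had 0.24, 0.241 and 0.638 CPM in dHep, 0.188, 0.316 and 0.289 CPM in the libraries labelled KO, and 1.16, 1.67 and 1.39 CPM in WT, with all WT libraries above the rest. Aurkb fell in dHep (-1.95 ± 0.42, edgeR adjusted p = 0.0102, 0.0527 without WT replicate 2) and in KO (-2.39 ± 0.45, edgeR adjusted p = 0.00281). Birc5 (survivin) had 0.929, 0.964 and 2.06 CPM in dHep, 0.892, 0.678 and 0.693 CPM in the libraries labelled KO, and 1.35, 1.44 and 2.32 CPM in WT. Here dHep replicate 3 lay within the WT range, and the dHep difference did not pass (-0.39 ± 0.37, edgeR adjusted p = 0.475). The fall was called in KO (-1.17 ± 0.39, edgeR adjusted p = 0.0367), but not without WT replicate 2 (0.0623), WT replicate 3 (0.143) or KO replicates 1, 2 and 3 in turn (0.0564, 0.108 and 0.1). Cdca8 (borealin) had 0.72, 0.562 and 0.883 CPM in dHep, 0.892, 1.13 and 1.1 CPM in the libraries labelled KO, and 1.69, 1.41 and 2.14 CPM in WT. The 3 groups were in that order without overlap; Cdca8 fell in dHep (-1.28 ± 0.29, edgeR adjusted p = 0.0127, 0.0665 without WT replicate 3, 0.053 with both pancreas-bearing libraries out). It did not pass in KO (-0.75 ± 0.28, edgeR adjusted p = 0.0584), except without dHep replicate 2 (0.0401), without dHep replicate 3 (0.045) or in a fit of WT and KO alone (0.0315).

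The spindle checkpoint holds anaphase back until chromosomes are attached, and Cdc20 activates the anaphase-promoting complex that ends it. Cdc20 had 0.27, 0.281 and 0.392 CPM in dHep, 0.658, 0.904 and 1.21 CPM in the libraries labelled KO, and 1.5, 2.41 and 2.21 CPM in WT. The 3 groups did not overlap, with those labelled KO between the others. Cdc20 fell in dHep (-2.70 ± 0.35, edgeR adjusted p = 0.00135) and in KO (-1.15 ± 0.32, edgeR adjusted p = 0.0177), the KO call being lost without WT replicate 2 (0.0771), WT replicate 3 (0.0658), KO replicate 1 (0.0564) or KO replicate 2 (0.0571). Bub1b, the checkpoint protein BUBR1, had 0.869, 0.562 and 0.343 CPM in dHep, 0.986, 0.995 and 0.808 CPM in the libraries labelled KO, and 2.1, 2.59 and 2.32 CPM in WT. Bub1b fell in dHep (-1.94 ± 0.33, edgeR adjusted p = 0.00395) and in KO (-1.32 ± 0.32, edgeR adjusted p = 0.00956), with WT above all. The checkpoint kinase Bub1 and the ubiquitin-conjugating enzyme Ube2c also fell, with log2 fold changes of -2.62 and -2.29 in dHep and -2.02 and -1.26 in KO. The KO call of Ube2c (edgeR adjusted p = 0.0167) was lost without WT replicate 2 (0.0735), WT replicate 3 (0.0568), KO replicate 2 (0.0703) or KO replicate 3 (0.0654).

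Of the centromere and kinetochore genes, Cenpa, the histone variant that marks centromeres, differed least. It had 2.52, 2.69 and 3.24 CPM in dHep, 2.54, 2.62 and 2.6 CPM in the libraries labelled KO, and 3.19, 3.52 and 3.81 CPM in WT, with dHep replicate 3 inside the WT range. Neither difference passed (-0.32 ± 0.18 in dHep, edgeR adjusted p = 0.216, and -0.44 ± 0.18 in KO, edgeR adjusted p = 0.0756); the KO value passed without dHep replicate 3 (0.049) and in a fit of WT and KO alone (0.0399). The kinetochore motor Cenpe had 0.54, 0.442 and 0.245 CPM in dHep, 0.611, 0.362 and 0.346 CPM in the libraries labelled KO, and 1.5, 1.93 and 2.21 CPM in WT, with no overlap against WT. It fell in dHep (-2.15 ± 0.36, edgeR adjusted p = 0.00394) and in KO (-2.08 ± 0.37, edgeR adjusted p = 0.0023). Cenpf, a large protein of the outer kinetochore, had log2 fold changes of -2.54 in dHep and -2.77 in KO, and both passed.

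All 6 spindle motors and microtubule proteins fell in both comparisons. Kif11, the motor that pushes spindle poles apart, had 1.35, 1.08 and 1.13 CPM in dHep, 1.41, 1.58 and 1.27 CPM in the libraries labelled KO, and 3.53, 3.52 and 3.92 CPM in WT, and its log2 fold changes were -1.61 ± 0.20 in dHep (edgeR adjusted p = 0.00118) and -1.36 ± 0.20 in KO (edgeR adjusted p = 0.00106). Tpx2, which nucleates spindle microtubules, had 0.45, 0.361 and 0.392 CPM in dHep, 0.517, 0.678 and 0.519 CPM in the libraries labelled KO, and 2.59, 2.85 and 3.42 CPM in WT. WT libraries lay above the others for both genes, and Tpx2 had log2 fold changes of -2.86 ± 0.27 in dHep (edgeR adjusted p = 0.000329) and -2.36 ± 0.26 in KO (edgeR adjusted p = 0.000335). Nusap1 and Prc1, which bundle microtubules, and Kif20a and Kif23, motors of the midzone and cytokinesis, had log2 fold changes of -1.81 to -2.99 in dHep and -1.39 to -2.43 in KO.

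Mki67, the antigen Ki-67 used to mark cycling cells, had 1.95, 1.61 and 1.81 CPM in dHep, 3.05, 2.4 and 2.37 CPM in the libraries labelled KO, and 8.79, 10.4 and 13.6 CPM in WT. The 3 groups did not overlap. The mean was 1.79 ± 0.172 CPM in dHep, 2.61 ± 0.388 CPM in KO and 10.9 ± 2.44 CPM in WT (SD, n = 3 each), and Mki67 fell in dHep (-2.60 ± 0.21, edgeR adjusted p = 0.000163) and in KO (-2.06 ± 0.20, edgeR adjusted p = 0.000224). Top2a, topoisomerase II that untangles sister chromatids, had 1.05, 1.33 and 1.13 CPM in dHep, 2.44, 1.72 and 1.1 CPM in the libraries labelled KO, and 8.04, 9.49 and 10 CPM in WT. WT lay above the rest, and Top2a fell in dHep (-2.97 ± 0.27, edgeR adjusted p = 0.000294) and in KO (-2.38 ± 0.26, edgeR adjusted p = 0.000337). Per kilobase, Mki67 reached a mean of 1.08 CPM in WT and Cenpf 0.181 CPM, the lowest WT level of the 45 members, while Ccnd1 and Pcna reached 25.9 and 16.9 CPM.

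Cdkn1a, the gene of the inhibitor p21 (chr17:29090986-29100722, plus strand), fell in dHep livers and did not pass the test in the libraries labelled KO. It had 1.59, 1.2 and 1.77 CPM in dHep, 14.5, 18.3 and 13 CPM in the libraries labelled KO, and 13.4, 20.5 and 22.8 CPM in WT. The dHep libraries lay far below all others, and the KO and WT ranges overlapped. The mean was 1.52 ± 0.287 CPM in dHep against 18.9 ± 4.93 CPM in WT (SD, n = 3 each), 12.4-fold lower, with a log2 fold change of -3.64 ± 0.25 (edgeR adjusted p = 8.87e-05, at most 0.000992 over the alternatives). In the libraries labelled KO the difference from WT was -0.31 ± 0.21 (edgeR adjusted p = 0.266, 0.0396 with both pancreas-bearing libraries out), and the log2 fold change of KO against dHep was 3.33 ± 0.25 (edgeR adjusted p = 0.000191, at most 0.00151 over the alternatives).

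The sequence before the first listed start of Cdkn1a, chr17:29090859-29090978 of GRCm38.p6 on the plus strand (RefSeq), is shown for a pair of ACATGT runs. That is the spelling searched for p53 half-sites. Capitals mark both runs and the 4 bases between them.
Cdkn1a: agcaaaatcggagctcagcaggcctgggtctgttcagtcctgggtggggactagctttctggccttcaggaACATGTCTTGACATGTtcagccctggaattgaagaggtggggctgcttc
The spelling ACATGTNNNNACATGT was chosen after this promoter had been read, so that its match here was fixed by the choice. Among 9453 tested genes with a promoter Cdkn1a was the 1 that held it (0.0106%), a share that does not measure p53 sites. No CHR, CCAAT or E2F match lay before either of the 2 starts of Cdkn1a. Of 21 other p53 target genes tested, 8 fell in dHep (median -0.24), where 11.9% of all genes fell. In the libraries labelled KO 6 fell and 1 rose (median -0.18), where 22.1% of all genes fell and 20.9% rose, so that the falls there were near the share over all genes. Against dHep, 4 of the 21 rose in KO and 0 fell, where 4.23% and 5.39% of all genes did. Eda2r, a death receptor family member, had 1.05, 0.522 and 0.834 CPM in dHep. It had 2.87, 2.44 and 3.29 CPM in the libraries labelled KO, and 10.9, 10.6 and 10.3 CPM in WT. Its log2 fold change in dHep was -3.70 ± 0.24 (edgeR adjusted p = 8e-05). Unlike for Cdkn1a, all of its libraries labelled KO lay below WT as well. Tnfrsf10b, the TRAIL receptor, had 0.48, 0.522 and 0.392 CPM in dHep, 1.36, 1.67 and 1.56 CPM in the libraries labelled KO, and 1.58, 1.48 and 1.85 CPM in WT. Tnfrsf10b fell in dHep (-1.80 ± 0.26, edgeR adjusted p = 0.00209), where the 3 libraries lay below all others.

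**Figure D5:**
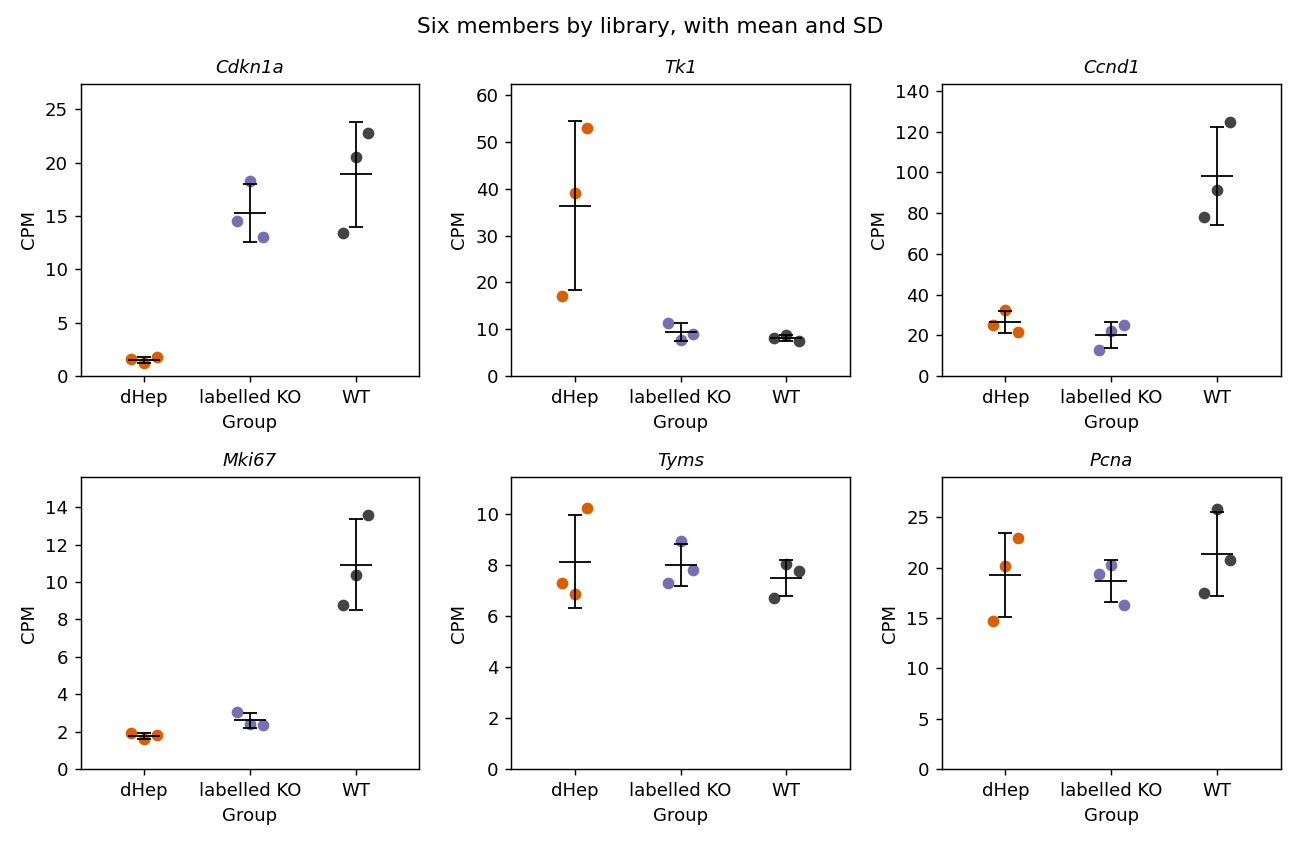
CPM in each library of 6 members that differ in pattern, by group, with the group mean and SD. Cdkn1a is low in dHep (1.2 to 1.77 CPM), Tk1 is high in dHep (17.1 to 52.9 CPM), Ccnd1 and Mki67 are below WT in every dHep and KO library, and Tyms and Pcna overlap between groups.

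Direct comparison of the libraries labelled KO with dHep called few members. Of the 18 S-phase members Mcm7 rose (0.49 ± 0.13, edgeR adjusted p = 0.0395) and Tk1 fell, of the 26 mitosis members Cdc20 rose (1.55 ± 0.36, edgeR adjusted p = 0.0298), and Cdkn1a rose, beside 4.23% of all genes that rose and 5.39% that fell (9.62% in either direction). The median log2 fold changes were 0.02 for S-phase members, 0.60 for mitosis members and -0.02 over all genes. Without overlap of the 2 groups, 2 S-phase and 10 mitosis members were higher in KO than in dHep (13.9% of all genes were), and Tk1 and Birc5 were lower (12.7%). The Mcm7 call was lost under 12 of 16 alternatives, among them leaving out any library but dHep replicate 3 (0.0633 to 0.103). The Cdc20 call was lost without WT replicate 2 (0.0569), WT replicate 3 (0.0599), dHep replicate 1 (0.0646), dHep replicate 2 (0.0694), KO replicate 2 (0.0821) or KO replicate 3 (0.103). It was lost too in an edgeR fit of KO and dHep alone (0.0902) and with both pancreas-bearing libraries out (0.0869). Tk1 lost its call without KO replicate 2 or 3, at 0.0545 and 0.0544. For 21 of the 26 mitosis members and 9 of the 18 S-phase members the log2 fold change against the shared WT libraries was lower in dHep than in KO, a description without a test.

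Genes of the same processes outside the set were counted from lists drawn up from general knowledge of these processes. Earlier results of these data were known when the lists were chosen. Of 42 other DNA replication genes tested, 17 fell in dHep (median -0.39), and 16 fell and 1 rose in the libraries labelled KO (median -0.37). Examples were the ligase Lig1, with -1.51 ± 0.20 in dHep (edgeR adjusted p = 0.00138), the chromatin remodeller Hells (-2.31 ± 0.33, edgeR adjusted p = 0.002) and the methyltransferase Dnmt1 (-0.66 ± 0.10, edgeR adjusted p = 0.00244). The gene that rose in KO was the replication initiation factor Mcm10 (1.30 ± 0.23, edgeR adjusted p = 0.00212), with 121, 109 and 76.1 CPM in dHep, 114, 178 and 192 CPM in the libraries labelled KO, and 78.1, 60.1 and 58.8 CPM in WT. Of 47 other mitosis genes, 35 fell and 1 rose in dHep (median -1.65), and 35 fell and 2 rose in KO (median -1.34). Beside both lists, 11.9% of all genes fell and 12.4% rose in dHep, and 22.1% fell and 20.9% rose in KO. The hyaluronan receptor Hmmr, which acts at spindle poles, fell in dHep (-3.77 ± 0.36, edgeR adjusted p = 0.000354), as did the condensin subunit Smc2 (-1.65 ± 0.15, edgeR adjusted p = 0.00033).

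Pttg1, securin, which holds separase inactive until anaphase, differed from these in pattern. It had 24.5, 25.5 and 29.9 CPM in dHep, 2.02, 2.26 and 1.85 CPM in the libraries labelled KO, and 23.7, 21.7 and 22.2 CPM in WT. The KO libraries lay below all others, with log2 fold changes of -3.46 ± 0.13 against WT (edgeR adjusted p = 1.62e-06) and -3.70 ± 0.14 against dHep (edgeR adjusted p = 1.31e-06), while dHep differed from WT by 0.24 ± 0.11 (edgeR adjusted p = 0.157). Among 25 genes of RB, E2F, DREAM and G1 control, 5 fell and 1 rose in dHep (median -0.30), beside 11.9% and 12.4% of all genes. In KO 6 fell and 3 rose (median -0.04), beside 22.1% and 20.9%, so that the falls there were near the share over all genes; the pocket protein gene Rbl1 fell in both, with -1.71 in dHep and -1.57 in KO. Of 4 other inhibitors of cyclin-dependent kinases tested, Cdkn2c fell in dHep (-1.10 ± 0.26, edgeR adjusted p = 0.0156, 0.0628 without WT replicate 2 and 0.0725 without WT replicate 3) and in KO (-1.87).

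Beside the counts below, 11.9% of all genes fell and 12.4% rose in dHep, and 22.1% fell and 20.9% rose in KO. Markers of other cells differed between the same groups. Those of macrophages and monocytes, of which 12 of 13 were in the table, summed to 94.8 to 170 CPM in dHep, 62.2 to 110 CPM in the libraries labelled KO, and 267 to 305 CPM in WT, and 8 of the 12 fell in dHep and 10 in KO. Stellate cell markers summed to 251 to 419 CPM in dHep, 219 to 302 CPM in KO and 555 to 632 CPM in WT, and 6 of 10 fell in dHep and 8 in KO. Endothelial markers summed to 184 to 259 CPM in dHep, 138 to 189 CPM in KO and 286 to 317 CPM in WT, and 4 of 8 fell in dHep and 6 in KO. For these 3 lists every dHep and KO library lay below every WT library. Bile duct markers summed to 44.1 to 56.7 CPM in dHep, 68.7 to 117 CPM in KO and 124 to 196 CPM in WT, but the genes went both ways. Of the 5 tested, 1 fell in dHep (median log2 fold change 0.26). In KO 1 rose and 1 fell (median 1.09), near the shares over all genes. Kupffer cell markers overlapped in dHep (186 to 336 CPM) and WT (274 to 376 CPM) and were lower in KO (70 to 139 CPM), where 3 of 6 fell. Sums for T and NK cells (4.29 to 7.21 CPM in dHep, 5.47 to 6.76 CPM in KO, 4.82 to 6.17 CPM in WT) overlapped. B and plasma cell markers summed to 4.46 to 9.36 CPM in dHep, 1.62 to 3.21 CPM in KO and 4.24 to 5.48 CPM in WT. The KO sums lay below the others, and 1 of 4 markers fell there against WT, near the share over all genes. Neutrophil sums overlapped (3.34 to 8.79 CPM in dHep, 1.94 to 3.58 CPM in KO, 3.34 to 6.37 CPM in WT), while both of the 2 genes tested fell in KO against WT (median -1.56). Markers of erythroid precursors summed to 146 to 197 CPM in dHep, 204 to 231 CPM in KO and 126 to 154 CPM in WT, with Hba-a1 and Hba-a2 at 0 reads in all libraries. Of 4 tested, 1 rose in dHep. In KO 1 rose and 1 fell (median 0.16), near the shares over all genes. The part of these cell types in the falls of the cell cycle genes was not tested. A fit with dHep replicate 2 and WT replicate 1 both left out was chosen with the data in view. In it 12 S-phase and 23 mitosis members fell in dHep, and 13 and 22 in KO. Of the 13154 genes tested in that fit, 2840 were called in either direction in dHep and 5043 in KO.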

How the data were processed

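Poly(A) RNA of 9 livers, 3 mice per group, was sequenced from stranded libraries. Per the submitters' processing notes, reads were checked with FastQC and aligned to mm10 with HISAT2 2.1.0; DESeq2 is named there too, and results of that step were not used here. The authors' raw counts of reads per gene were made with featureCounts 1.6.2 at strand setting 2, per the file headers. The gene length they give, a unit of other kind, served for levels per kilobase. The number of table columns without a sample was 0.

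Of 23337 genes, 13141 were tested after edgeR's filterByExpr, set to a minimum count of 10 and a minimum total of 15. The fit was edgeR 4.0.16 (R 4.3.3) glmQLFit on all 9 libraries with TMM scaling and 1 mean for each group, tested with glmQLFTest, Benjamini-Hochberg adjustment over all genes tested and a threshold of 0.05. The scripts were tested on simulated data. Members and lists were chosen with earlier results of these data known. Values in every library were given for the most abundant member of each role group, the one with the smallest p in dHep against WT, every member that missed a call against WT, every member called against the majority, the members called between KO and dHep, and Cdkn1a; Ccnb1, Melk and Top2a were added after their values were seen. Of each other list, up to 3 called genes per direction with the smallest p could be named, of which the text gives some. Alternatives were the size factors of DESeq2 1.42.0, its Wald test, no filter, a filter of 1 CPM in 3 libraries, a fit of the 2 groups compared, the replicate number as a block, and each library left out. Promoters came from RefSeq (GRCm38.p6), matched by symbol.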

Additional observations from a re-analysis of the deposited data

How the results depend on the processing

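The number of genes that rose or fell in dHep against WT was 3192 and moved with single libraries, from 1359 (without WT replicate 3) to 4025 (without dHep replicate 2); it was 1952 without WT replicate 1 and 1438 without WT replicate 2. In the libraries labelled KO against WT, 5653 genes were called, and 3835 to 6547 with 1 library left out. For KO against dHep, 1264 genes were called, but 2068 by DESeq2, 342 in a fit of those 2 groups alone, 495 with both pancreas-bearing libraries out, and 386 to 2809 with 1 library left out.

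Member counts against WT kept their direction. With 1 library left out, 11 to 14 S-phase members (15 in the full fit; 10 to 13 fell, of 14) and 22 to 24 mitosis members (24) were called in dHep, and 10 to 13 (12) and 16 to 26 (23) in KO, the 16 without WT replicate 2 and again without WT replicate 3. Between KO and dHep, the 2 S-phase calls became 1 with no filter, 1 in the 2-group fit and 1 with both pancreas-bearing libraries out, and 0 to 2 with 1 library left out (0 to 1 for the 1 that fell). The 1 mitosis call became 3 by DESeq2, 0 in the 2-group fit, 0 with both pancreas-bearing libraries out, and 0 to 3 with 1 library left out. The cause of these moves was not tested.

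Replicate numbers did not pair the samples: deviations of same-numbered libraries correlated between -0.272 and 0.0273, and not every library correlated best with its own number. With the number as a block, 2781 genes were called in dHep against WT, 5292 in KO against WT and 954 in KO against dHep, with 14 S-phase and 24 mitosis members, 12 and 23, and 1 and 2. The block ended the calls of Ccne2 in dHep against WT (edgeR adjusted p = 0.0722) and of Mcm7 in KO against dHep (0.0684).

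No called member changed sign. Against WT in dHep, Tyms turned to -0.08 without dHep replicate 3 (highest 0.22), and Pcna to 0.01 without WT replicate 2 and 0.02 without dHep replicate 1 (lowest -0.29). Between KO and dHep, 14 of 41 members not called changed sign under some alternative. Depth limits members with few reads in either phase: Melk had at most 21 reads in a library, and Cdc6 had 16, 5 and 9 in dHep. Reads in dHep were 3, 3 and 7 for Ccnb1, 5, 3 and 1 for Plk1, and 7, 5 and 1 for Bub1.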
